A study of Mus musculus with 4 samples.

Results

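Chemokine ligand and receptor genes were followed in 4 subcutaneous neuroblastoma tumours of mice. They were chosen by name, as every protein-coding gene of GENCODE M21 whose symbol begins with Ccl, Cxcl, Cx3cl, Xcl, Ccr, Cxcr, Cx3cr, Xcr or Ackr and a digit. The rule found 67 of the 43432 genes counted, 44 of them ligand genes and 23 receptor genes, under 62 different symbols because gene copies on 7 unplaced scaffold entries repeat some names. The tumour cells were 9464D-GD2, a line made from a neuroblastoma of TH-MYCN transgenic mice and bearing the glycolipid GD2, and the hosts were female C57BL/6 mice. Of the 4 tumours, 2 came from mice given 25 µg dinutuximab together with 20 µg of sEVs, small extracellular vesicles released by 9464D-GD2 cells, and 2 from mice given 25 µg dinutuximab alone. Dinutuximab is an antibody against GD2, all 4 mice received it, and no untreated tumour was analysed here. Both groups were dosed 2 times per week for 5 treatments, and each group has a tumour 3 and a tumour 4 by its labels.

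Chemokines are small secreted proteins that steer leukocytes along a gradient by binding receptors coupled to G proteins. They are named after the spacing of the cysteines near their start, which gives the CC, CXC, CX3C and XC families. Inflammatory chemokines are switched on in injured or infected tissue, while homeostatic ones guide traffic through lymphoid organs. The atypical receptors, named Ackr, bind chemokines without signalling through G proteins and take them out of circulation. In tumours, monocytes are called in mainly through Ccr2, activated T cells and natural killer cells through Cxcr3, and neutrophils through Cxcr2.

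The sEV libraries held 26164711 and 28187573 counts and the dinutuximab libraries 26312447 and 24452699. Levels are given as CPM, counts scaled by library size so that 1 count was worth 0.0347 to 0.0409 CPM, and levels of different genes are compared only as CPM per kb of merged exon length. Of 10 neuroblastoma markers, Hand2, Isl1 and Mycn were measured in every tumour. In all, 6 of the 10 had under 10 counts in every tumour. Of those, 3 had 0 counts in all 4 tumours, among them Dbh, an enzyme of noradrenaline synthesis. In a principal component analysis the leading component placed sEV tumour 3 at 25.4 and the other 3 tumours between -14.1 and -3.78. The tumours within a group are biological replicates, per the design text.

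In both sEV tumours receptor genes of monocytes and macrophages, among them Ccr1 and Ccr2, and 6 ligand genes had higher levels than in both dinutuximab tumours. Cxcr4 and 5 ligand genes had lower levels in both, and no member passed the test. By edgeR's quasi-likelihood test with Benjamini-Hochberg adjustment over 13823 genes, 0 members were higher and 0 lower at an adjusted p under 0.05, where the share called among all genes was 0.0% in either direction. DESeq2 called 0 members, with 0.123% of all genes called higher and 0.275% lower, and limma-voom called 0 members and 0.0% of genes. At an unadjusted p under 0.05, 4 members were higher and 6 lower, out of 31 tested. In the same fit 2.47% of all tested genes were higher and 3.1% lower at that threshold, 5.57% in all, against 32.3% of the tested members. Among the higher members were Ccr1, Ccr2 and Ccl5, and the 6 lower ones were Ccl3, Ccl4, Ccl11, Cxcl12, Cxcl14 and Cxcr4. In a count over single tumours, both sEV tumours lay above both dinutuximab tumours in 9 tested members and below them in 6. Those are 48.4% of the tested members, beside 34.6% of all tested genes, of which 18.1% were higher and 16.5% lower. Ccl11 and Ccl17 passed the low-count filter through 1 group alone, so that counts over tested members describe them and support nothing further.

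The median log2 fold change, sEV over dinutuximab, was -0.02 over the 23 tested ligand genes (0.02 with total count scaling) and 0.54 over the 8 tested receptor genes, beside 0.00 over all tested genes. Both medians moved with single tumours. Each fit without a tumour was filtered anew, so its median also covers a different set of genes. The ligand median was 0.42 without dinutuximab tumour 3 (24 tested) and -0.28 without dinutuximab tumour 4 (25 tested). The receptor median was 0.21 without dinutuximab tumour 3 (11 tested) and 1.14 without dinutuximab tumour 4 (11 tested). It was 0.73 without sEV tumour 3 (10 tested) and 0.35 without sEV tumour 4 (9 tested). When sEV tumour 3 was left out, edgeR called 3 members higher and 2 lower, with 0.338% and 0.592% of all genes called, 0.93% in all. When sEV tumour 4 was left out it also called 3 higher and 2 lower, with 1.13% and 1.1% of all genes called, 2.23% in all. Ccr2 was called higher in both of those fits. When either dinutuximab tumour was left out, 0 members and 0.0% of genes were called. Without the low-count filter 4 members (Ccl5, Ccr2, Cxcl9 and Ackr3) were higher and 3 (Ccl4, Cxcl12 and Cxcr4) lower, with 0.486% and 0.704% of all genes called, 1.19% in all. In that fit and in those without an sEV tumour, edgeR gave every gene the variance of a common trend, so the adjusted p-values from them do not use the gene's own spread.

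The chemokine genes with most transcript per length were a small set of CC ligands. Ccl8, in the mouse a ligand of Ccr8, had 234 and 557 CPM per kb in the sEV tumours, against 386 and 337 in the dinutuximab tumours. The sEV tumours thus held both the highest and the lowest Ccl8 level, and the groups overlapped. Its log2 fold change was 0.13 ± 0.33 (SE, n = 2 tumours per group, edgeR adjusted p = 0.973), and -0.63 without sEV tumour 4. Ccl6, a macrophage chemokine of rodents that acts through Ccr1, came next with 238 and 188 CPM per kb in the sEV tumours and 184 and 163 in the dinutuximab tumours. The ranges of Ccl8 and Ccl6 met in sEV tumour 3. Averaged over the 4 tumours, the order went on with Ccl12 at 101 CPM per kb, Ccl7 at 63.2, Ccl2 at 61.7 and Ccl9 at 54.0. Those 4 genes overlapped in range, and their order beyond Ccl6 lay within the spread between tumours. Cxcl16, a ligand that can also stay on the cell surface, followed at 10.9 CPM per kb, and each of the other 16 tested ligand genes averaged less than that.

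**Figure D1:**
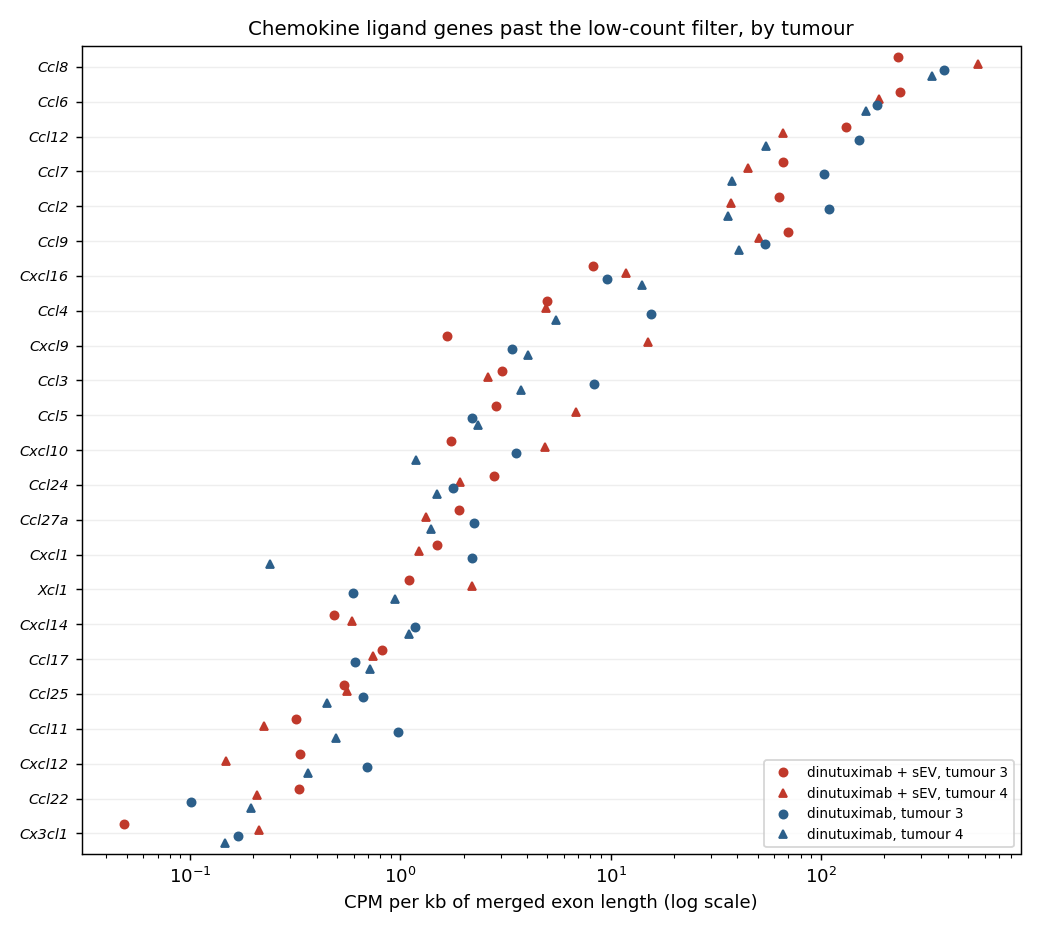
Level of the 23 ligand genes that passed the low-count filter, as CPM per kb of merged exon length on a log scale, with 1 point per tumour (red, dinutuximab plus sEV; blue, dinutuximab; circles, tumour 3; triangles, tumour 4). Genes run down by mean level, from Ccl8 at 378 CPM per kb, and Cxcl1 shows dinutuximab tumour 4 far below the other 3 tumours, at 0.24 CPM per kb.

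Receptor genes were present at much lower levels per length than the 6 most abundant ligand genes. Ccr1, a receptor of monocytes, macrophages and neutrophils, averaged 11.3 CPM per kb over the 4 tumours. Cxcr4, the receptor of Cxcl12, averaged 6.66 and Ackr3, an atypical receptor of the same ligand, 4.86. Ccr2, the receptor of inflammatory monocytes, averaged 1.51 and Cx3cr1, the fractalkine receptor, 1.08 CPM per kb. From Ccr1 down to Cx3cr1 each of these genes overlapped in range with the next. A further 17 receptor genes averaged 0.34 CPM per kb or less, among them Cxcr6 and Ccr7, which were tested. The Cx3cr1 gene model spans several other genes, so its counts are uncertain.

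**Figure D2:**
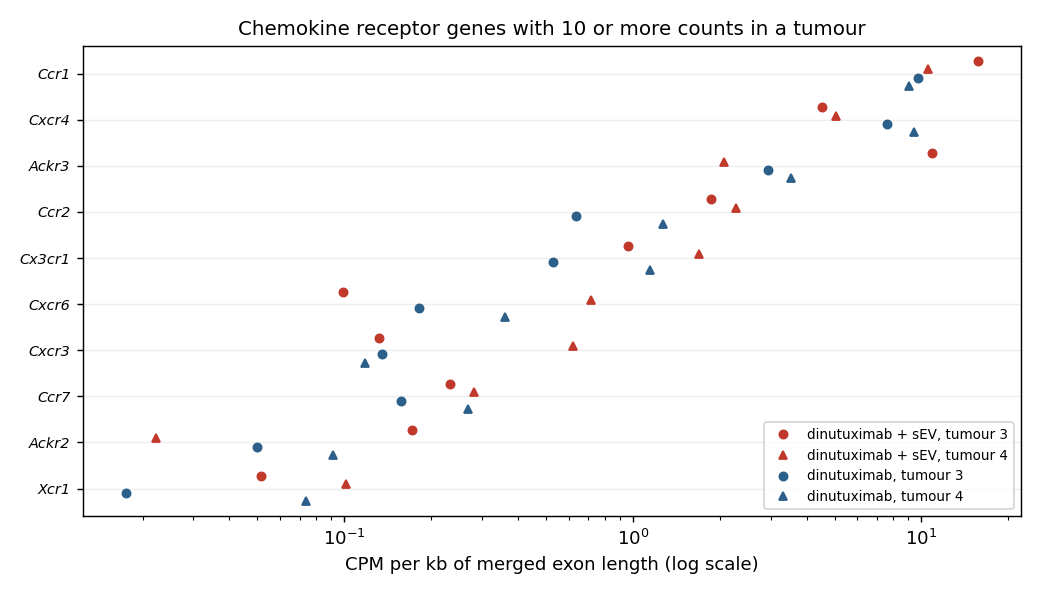
Level of 10 receptor genes with at least 10 counts in a tumour and none at 0, as CPM per kb of merged exon length on a log scale, with 1 point per tumour and symbols by group and tumour number. Both sEV tumours lie right of both dinutuximab tumours for Ccr1 and Ccr2 and left of them for Cxcr4, while Ackr3 reaches 10.9 CPM per kb in sEV tumour 3 alone.

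The Ccr2 axis recruits monocytes from blood. Ccr2 had 12.6 and 15.4 CPM in the sEV tumours, against 4.29 and 8.60 CPM in the dinutuximab tumours. Both sEV tumours lay above both dinutuximab tumours, which themselves differed by more than the sEV pair did. The mean was 14.0 ± 1.99 CPM with sEVs and 6.44 ± 3.05 CPM with dinutuximab (SD, n = 2 each), a log2 fold change of 1.12 ± 0.31 (SE, edgeR adjusted p = 0.646). It was 1.25 without sEV tumour 3, 0.97 without sEV tumour 4, 0.70 without dinutuximab tumour 3 and 1.71 without dinutuximab tumour 4. Without the low-count filter it was 1.12 (edgeR adjusted p = 0.000644), in a fit that did not use the gene's own spread. In bulk tissue, more cells of a type and more transcript per cell cannot be told apart. Of 7 monocyte markers, 6 had positive log2 fold changes, with a median of 0.35. The groups did not overlap in 1 of them, Vcan (0.50 ± 0.14), or 14.3% of the list beside 34.6% of all tested genes. Ly6c2, which marks inflammatory monocytes, had 0.535 and 1.56 CPM with sEVs and 0.935 and 0.328 CPM with dinutuximab. The summed level of these markers was 2329 and 2237 CPM with sEVs and 1910 and 2650 CPM with dinutuximab, with none at 0, and their part in the Ccr2 difference was not tested.

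The 3 ligands of Ccr2 did not follow the receptor. Ccl2, the main monocyte attractant, had 72.2 and 42.6 CPM in the sEV tumours and 125 and 40.9 CPM in the dinutuximab tumours. Ccl7 had 52.9 and 36.2 CPM with sEVs and 83.1 and 30.2 CPM with dinutuximab, and Ccl12, a rodent relative of Ccl2, 70.8 and 35.5 CPM with sEVs and 81.3 and 29.4 CPM with dinutuximab. All 3 genes had the same order of tumours, with dinutuximab tumour 3 highest, sEV tumour 3 next, then sEV tumour 4 and dinutuximab tumour 4. The groups overlapped, and the log2 fold changes were -0.53 ± 0.44 for Ccl2, -0.35 ± 0.39 for Ccl7 and -0.06 ± 0.44 for Ccl12 (SE, edgeR adjusted p from 0.909 to 0.993). Without dinutuximab tumour 3 they were 0.49, 0.56 and 0.85. Without sEV tumour 3 the Ccl2 value was -0.97. Without sEV tumour 4 the Ccl12 value was 0.35. The 3 genes lie within 82035571 to 82103400 on the plus strand of chromosome 11 (GRCm38), with Ccl11 between Ccl7 and Ccl12.

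Ccr1 binds a macrophage inflammatory protein, Ccl3, and Ccl5, Ccl6, Ccl7 and Ccl9. Its gene had 44.5 and 29.8 CPM in the sEV tumours and 27.6 and 25.7 CPM in the dinutuximab tumours. The groups did not overlap, but sEV tumour 4 lay close to the dinutuximab tumours. The log2 fold change was 0.48 ± 0.20 (SE, n = 2 tumours per group, edgeR adjusted p = 0.871). It was 0.15 without sEV tumour 3 and 0.74 without sEV tumour 4. The summed level of 10 macrophage markers was 2184 and 2265 CPM with sEVs and 1887 and 1996 CPM with dinutuximab, with none at 0. Of these markers 9 of 10 had positive log2 fold changes, with a median of 0.16, and in 7 both sEV tumours lay above both dinutuximab tumours, 70% of the list beside 18.1% of all tested genes. At an unadjusted p under 0.05, 2 were higher, Fcgr1 (0.47 ± 0.15) and Mrc1 (0.39 ± 0.17), 20% of the list beside 2.47% of all tested genes. Adgre1, which encodes F4/80, had -0.04 ± 0.14. The part of these markers in the Ccr1 difference was not tested.

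The inflammatory CC ligands split. Ccl3 and Ccl4, inflammatory proteins made by activated macrophages and T cells, were lower in both sEV tumours. Ccl4 had 3.28 and 3.26 CPM with sEVs and 10.3 and 3.64 CPM with dinutuximab, and Ccl3 had 2.33 and 2.01 CPM with sEVs and 6.35 and 2.87 CPM with dinutuximab. For both genes dinutuximab tumour 3 stood alone, and dinutuximab tumour 4 lay just above the sEV tumours. The log2 fold changes were -1.09 ± 0.44 for Ccl4 and -1.09 ± 0.40 for Ccl3 (SE, edgeR adjusted p = 0.850 and 0.804), and -0.16 and -0.40 without dinutuximab tumour 3. The 2 genes are neighbours on chromosome 11, Ccl3 at 83647844 to 83649355 on the minus strand and Ccl4 at 83662584 to 83664683 on the plus strand. Ccl5, which draws T cells and is made by them, had 2.75 and 6.59 CPM with sEVs, against 2.10 and 2.25 CPM with dinutuximab. Its log2 fold change was 1.10 ± 0.42 (SE, edgeR adjusted p = 0.833), 0.34 without sEV tumour 4 and 1.59 without sEV tumour 3.

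Ccl6 and Ccl9, the rodent ligands of Ccr1 that macrophages make without a stimulus, lie near each other on chromosome 11. Ccl6 had 427 and 338 CPM with sEVs and 331 and 293 CPM with dinutuximab, and Ccl9 had 213 and 155 CPM with sEVs and 165 and 125 CPM with dinutuximab. The highest value of both was in sEV tumour 3, and the groups did not overlap for Ccl6 but did for Ccl9. The log2 fold changes were 0.30 ± 0.15 for Ccl6 and 0.35 ± 0.19 for Ccl9 (SE, edgeR adjusted p = 0.887 and 0.892), and 0.11 and 0.09 without sEV tumour 3.

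**Figure D3:**
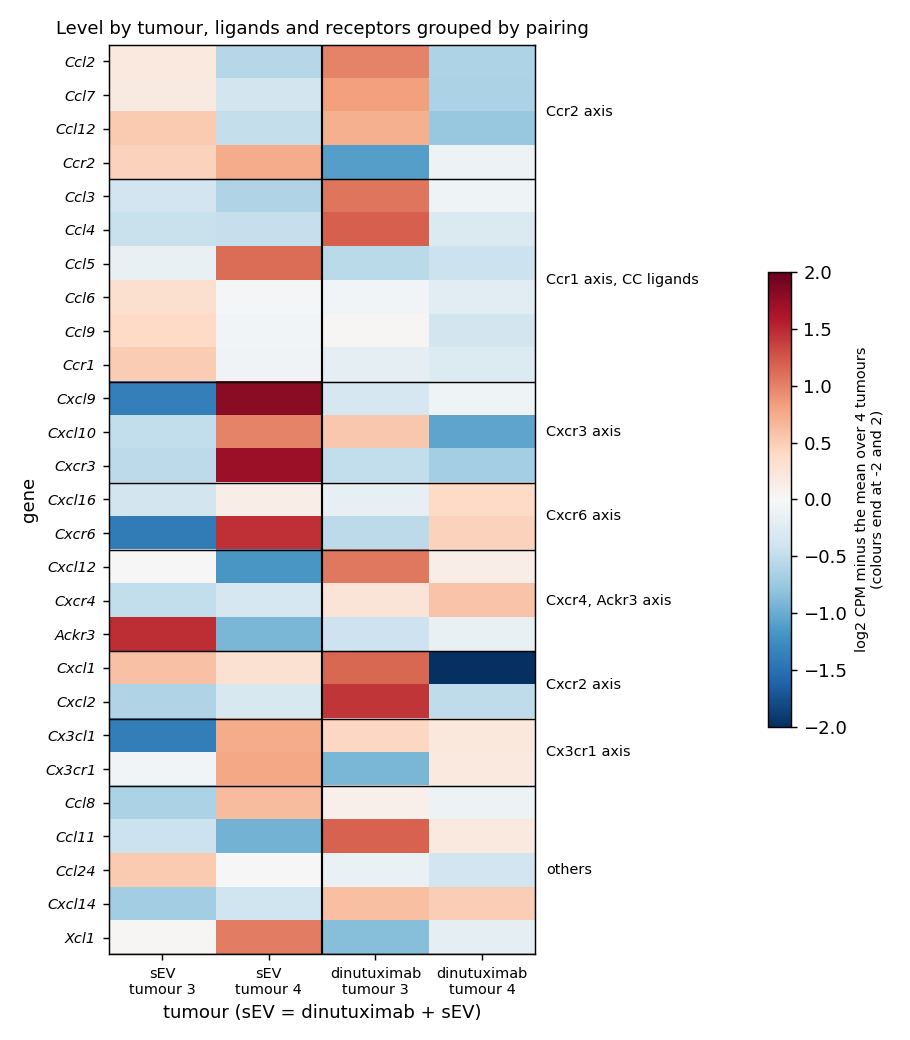
Level of 27 ligand and receptor genes in each tumour as log2 CPM minus the gene's mean over the 4 tumours, with genes grouped by receptor; sEV tumours are the 2 left columns and dinutuximab tumours the 2 right ones. Cxcl9, Cxcl10, Cxcr3 and Cxcr6 are highest in sEV tumour 4, Ccl2, Ccl3, Ccl4, Ccl7 and Ccl12 are highest in dinutuximab tumour 3, and Ackr3 is highest in sEV tumour 3.

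The Cxcr3 axis, induced by interferons and used by activated T and natural killer cells, differed between the sEV tumours. Cxcl9 had 5.00 and 45.2 CPM in the sEV tumours and 10.3 and 12.2 CPM in the dinutuximab tumours. The sEV tumours thus held its lowest and its highest value, on either side of both dinutuximab tumours. Its log2 fold change was 1.16 ± 0.73 (SE, edgeR adjusted p = 0.908). Without sEV tumour 3 it was 2.0 and without sEV tumour 4 it was -1.17. Each of these fits left 1 sEV tumour and did not use the gene's own spread, so only the sizes are given. Cxcl10 had 3.93 and 11 CPM with sEVs and 8.03 and 2.66 CPM with dinutuximab, a log2 fold change of 0.48 ± 0.56 (SE, edgeR adjusted p = 0.944), with -0.44 without sEV tumour 4 and -0.11 without dinutuximab tumour 4. Cxcl10 lies within Art3 on the opposite strand, and Art3 had between 19.6 and 27.9 CPM. The receptor gene Cxcr3 was under the filter, with 6 and 31 counts in the sEV tumours and 6 and 5 counts in the dinutuximab tumours. Cxcl11, the other ligand, is a polymorphic pseudogene in GENCODE M21 and no member, and it had 8 counts in all.

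The Cd3 and Cd8 transcripts of T cells were also highest in sEV tumour 4, while Cd4 and Prf1 were highest in dinutuximab tumour 4. Cd3e had 1 and 30 counts in the sEV tumours and 5 and 10 in the dinutuximab tumours, and Cd8a had 6 and 43 counts with sEVs and 7 and 17 with dinutuximab. Over 15 T and natural killer cell markers the summed level was 9.40 and 17.7 CPM with sEVs and 12.3 and 13.8 CPM with dinutuximab, with 1 marker, Foxp3, at 0 in dinutuximab tumour 4. The interferon gamma gene Ifng had 4 and 10 counts with sEVs and 5 and 3 with dinutuximab, few in every tumour. Whether these markers account for the Cxcl9 level of sEV tumour 4 was not tested. Cxcr6, a receptor of tissue T cells, had 5 and 40 counts with sEVs and 9 and 17 with dinutuximab, so it was highest in sEV tumour 4 as well. It overlaps Fyco1 on the opposite strand, at 10.2 to 12.9 CPM, so its counts are uncertain. Its ligand Cxcl16 varied less, with 24.9 and 35.6 CPM with sEVs and 28.9 and 42.6 CPM with dinutuximab. The log2 fold changes were 0.61 ± 0.79 for Cxcr6 and -0.24 ± 0.23 for Cxcl16 (SE, edgeR adjusted p = 0.947 and 0.926). Cxcr6 had -1.42 without sEV tumour 4, and Cxcl16 had 0.07 without dinutuximab tumour 4.

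The stretches before the start sites of 4 inducible ligand genes, shown because their levels differed between single tumours, were read for 2 motifs. The first was GGGA, any 4 bases and CC, a form of the kappaB motif, and the second GAAA, any 2 bases and GAAA, a core of the interferon-stimulated response element. Both strands were searched over the 250 bases before the RefSeq start (GRCm38.p6), matches are in capitals, and motifs of the same kind may overlap. Each is printed 5′ to 3′ on the strand of its gene.
Cxcl9: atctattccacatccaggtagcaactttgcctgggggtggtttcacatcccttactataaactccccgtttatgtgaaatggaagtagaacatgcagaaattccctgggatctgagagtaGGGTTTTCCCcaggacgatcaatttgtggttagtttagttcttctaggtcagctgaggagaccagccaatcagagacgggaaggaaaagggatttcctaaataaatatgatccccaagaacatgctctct
Cxcl10: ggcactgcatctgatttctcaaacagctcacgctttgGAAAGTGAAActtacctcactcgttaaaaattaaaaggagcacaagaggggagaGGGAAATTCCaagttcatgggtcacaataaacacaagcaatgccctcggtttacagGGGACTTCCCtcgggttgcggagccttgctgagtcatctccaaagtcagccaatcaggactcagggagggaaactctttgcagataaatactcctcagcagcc
Cxcl1: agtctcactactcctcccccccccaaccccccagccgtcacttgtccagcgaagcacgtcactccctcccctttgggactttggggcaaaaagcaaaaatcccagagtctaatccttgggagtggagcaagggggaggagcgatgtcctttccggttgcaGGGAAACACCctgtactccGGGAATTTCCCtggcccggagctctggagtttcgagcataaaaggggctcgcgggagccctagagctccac
Ccl3: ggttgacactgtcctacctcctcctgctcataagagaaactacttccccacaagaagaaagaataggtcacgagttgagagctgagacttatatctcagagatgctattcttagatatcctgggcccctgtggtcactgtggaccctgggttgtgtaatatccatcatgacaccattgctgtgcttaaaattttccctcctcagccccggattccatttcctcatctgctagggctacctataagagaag
The windows are chr5:92328080-92328329 for Cxcl9, chr5:92348890-92349139 for Cxcl10 and chr11:83649379-83649628 for Ccl3, all on the minus strand, and chr5:90890995-90891244 for Cxcl1 on the plus strand. The kappaB form was found 1 time before Cxcl9, 2 times before Cxcl10 and 3 times, 2 of them overlapping, before Cxcl1, and the interferon core 1 time, before Cxcl10. Neither string is in the Ccl3 window. Of all 32851 windows of this length, 17.6% held the kappaB form and 2.98% the interferon core. Among the 22 tested members with a window, 6 held the first and 2 the second, where a gene with several windows counted if any of them did. A match is a string of letters and not a measured binding site.

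The Cxcr4 axis was lower in both sEV tumours. Cxcl12, a stromal chemokine that holds cells in marrow and guides vessels, had 2.71 and 1.21 CPM with sEVs and 5.65 and 2.99 CPM with dinutuximab. Its receptor gene Cxcr4 had 8.17 and 9.15 CPM with sEVs and 13.8 and 17.1 CPM with dinutuximab. The groups did not overlap in either gene, and Cxcr4 was the member of lowest edgeR adjusted p. The mean of Cxcr4 was 8.66 ± 0.690 CPM with sEVs and 15.4 ± 2.35 CPM with dinutuximab (SD, n = 2 each), a log2 fold change of -0.83 ± 0.20 (SE, edgeR adjusted p = 0.535). It lay between -0.98 and -0.67 whichever tumour was left out. Cxcl12 had -1.14 ± 0.45 (SE, edgeR adjusted p = 0.849), with -0.61 without dinutuximab tumour 3, -0.67 without sEV tumour 4 and -1.84 without sEV tumour 3.

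Ackr3, which binds and clears Cxcl12, had 36.6 and 6.93 CPM in the sEV tumours and 9.82 and 11.8 CPM in the dinutuximab tumours. It was high in sEV tumour 3 alone, and the other sEV tumour had the lowest value of the 4. The log2 fold change was 1.0 ± 0.59 (SE, edgeR adjusted p = 0.908), 1.76 without sEV tumour 4 and -0.65 without sEV tumour 3. Lyve1, a gene of lymphatic vessels and of some tissue macrophages, was also highest in sEV tumour 3, with 128 and 38.5 CPM with sEVs and 46.4 and 28.7 CPM with dinutuximab, and its part was not tested. Prox1, which defines lymphatic endothelium, had at most 1 count in a tumour.

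Among ligands tied to stroma, Cxcl14 and Ccl11 were lower in both sEV tumours beside Cxcl12. Cxcl14, whose receptor is not settled, had 0.879 and 1.07 CPM with sEVs and 2.14 and 2.01 CPM with dinutuximab. Eotaxin, encoded by Ccl11 and read by Ccr3 on eosinophils, had 9 and 7 counts with sEVs and 27 and 13 counts with dinutuximab. The groups did not overlap in either, where 16.5% of all tested genes were lower in both sEV tumours. Ccl11 passed the low-count filter through the dinutuximab group alone, so its values describe it and support nothing further. The log2 fold changes were -1.08 ± 0.35 for Cxcl14 and -1.43 ± 0.55 for Ccl11 (SE, edgeR adjusted p = 0.738 and 0.841). Leaving out a tumour gave Cxcl14 values between -1.23 and -0.96, and Ccl11 had -0.86 without dinutuximab tumour 3. Fibroblast markers were not uniform in these tumours. Acta2 (-2.04 ± 0.40), Tagln, Col1a2, Col1a1 and Pdgfrb were lower and Dcn (0.54 ± 0.22) and Col3a1 higher at an unadjusted p under 0.05. Those are 77.8% of the 9 markers, beside 5.57% of all tested genes. In 3 markers both sEV tumours lay above both dinutuximab tumours and in 5 below, 88.9% beside 34.6% of all tested genes. The summed level of the 9 markers was 899 and 748 CPM with sEVs and 672 and 640 CPM with dinutuximab, with none at 0. The 9 endothelial markers summed to 166 and 152 CPM with sEVs and 183 and 206 CPM with dinutuximab, with none at 0, and 8 of 9 had negative log2 fold changes. In 6 of them both sEV tumours lay below both dinutuximab tumours, 66.7% beside 16.5% of all tested genes. Their part in the 3 ligands was not tested.

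The neutrophil axis had few counts for its receptors. Cxcl1, a neutrophil attractant, had 73 and 66 counts with sEVs and 105 and 11 counts with dinutuximab, so the dinutuximab tumours held both extremes. Its log2 fold change was 0.15 ± 0.73 (SE, edgeR adjusted p = 0.989), with 2.48 without dinutuximab tumour 3 and -0.69 without dinutuximab tumour 4. The related gene Cxcl2 had 6 and 8 counts with sEVs and 24 and 6 with dinutuximab, and Cxcl3 and Cxcl5 had at most 8 counts in a tumour. Their receptor gene Cxcr2 had 5 and 0 counts with sEVs and 1 and 2 with dinutuximab, and Cxcr1 had 0 in all 4 tumours. Of 9 neutrophil markers, 6 had under 10 counts in every tumour, and Ly6g and Ngp were at 0 in all 4. The 3 tested markers had 2 positive and 1 negative log2 fold change, and 2 of them passed the filter through 1 group alone. S100a8, with 13 and 11 counts with sEVs and 1 and 5 with dinutuximab, passed through the sEV group alone. The summed level of the 9 markers was 3.74 and 6.27 CPM with sEVs and 3.20 and 5.90 CPM with dinutuximab.

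Ligands and receptors of dendritic cells and lymphocytes were near the limit of counting. Xcl1, made by natural killer and CD8 T cells, had 15 and 33 counts with sEVs and 8 and 12 with dinutuximab (1.10 ± 0.53, SE, edgeR adjusted p = 0.887), and its receptor gene Xcr1, on cross-presenting dendritic cells, 6 and 13 with sEVs and 2 and 8 with dinutuximab. Ccl22, which calls regulatory T cells through Ccr4, had 20 and 14 counts with sEVs and 6 and 11 with dinutuximab, while Ccr4 had 2 counts in sEV tumour 4 and 0 elsewhere. Ccl17, the other ligand of Ccr4, had 11 and 11 counts with sEVs and 8 and 9 with dinutuximab. Both sEV tumours lay above both dinutuximab tumours for Xcl1, Ccl17 and Ccl22, and the differences did not pass. Ccr7, which takes dendritic cells to lymph nodes, had 12 and 16 counts with sEVs and 8 and 13 with dinutuximab. Its ligand genes Ccl19, Ccl21a, Ccl21b and Ccl21c, with the scaffold copies, had 0 counts in all tumours, though counts of near-identical copies are uncertain. Ccl24, a second eotaxin, had 3.59 and 2.50 CPM with sEVs and 2.30 and 1.92 CPM with dinutuximab (0.52 ± 0.33, SE, edgeR adjusted p = 0.908). Both sEV tumours were again the higher ones, and Ccr3, the receptor gene shared with Ccl11, had at most 7 counts in a tumour.

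The fractalkine pair also had more transcript for its receptor than for its ligand per length. Cx3cr1, found on monocytes and tissue macrophages, had 4.32 and 7.63 CPM with sEVs and 2.38 and 5.16 CPM with dinutuximab. In both groups tumour 4 had the higher value, and the groups overlapped. Its log2 fold change was 0.67 ± 0.41 (SE, edgeR adjusted p = 0.908), 0.20 without sEV tumour 4 and 1.33 without dinutuximab tumour 4. Cx3cl1 had 5 and 24 counts with sEVs and 17 and 14 counts with dinutuximab. Ccl25 and Ccl27a, ligands of gut and skin homing with 4.11 and 4.07 CPM over the 4 tumours, had log2 fold changes of -0.02 ± 0.29 and -0.17 ± 0.33, and Ccl25 had 0.02 with total count scaling. Both overlap genes on the opposite strand, Elavl1 at 108 CPM or more and Il11ra1 at 35.8 CPM or more, and without the strand setting their own counts are uncertain.

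Of the 67 members, 36 were not tested, and 19 of these had 0 counts in all 4 tumours. A count of 0 allows up to 0.106 to 0.123 CPM, as the level of 3 counts in a library of this depth. That limit does not hold for genes with near-identical copies, such as the Ccl19, Ccl21 and Ccl27 entries, whose counts are uncertain. Among the 15 ligand entries at 0 were Ccl20, which pairs with Ccr6, the lung and mucosal genes Cxcl15 and Cxcl17, and Ccl26, Ccl27 and Ccl27b. The 4 receptor genes at 0 were Ccr6, Ccr8, Ccr9 and Cxcr1. Ccr8 is the receptor that the mouse Ccl8 protein is known to use, so the ligand gene of highest level per length stood beside a receptor gene with no count. The scavenging receptor genes Ackr1 and Ackr4 had 1 count each over all tumours, and Ackr2, which clears inflammatory CC chemokines, had 14 and 2 counts with sEVs and 4 and 7 with dinutuximab. The other untested members were Ccl1, Ccl28, Cxcl2, Cxcl3, Cxcl5, Cxcl13, Ccr1l1, Ccr3, Ccr4, Ccr10, Cxcr2, Cxcr3, Cxcr5 and Xcr1, each with at most 31 counts in a tumour.

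Read as 39 pairs of a ligand with a classical receptor, 14 pairs had both genes tested. In 4 of these pairs both genes had positive log2 fold changes, in 1 both had negative ones, and in 9 the signs differed. The pairs share genes and are not independent. Pairs with both positive included Ccl5, Ccl6 and Ccl9 with Ccr1, and the pair with both negative was Cxcl12 and Cxcr4. Those of opposite sign all joined a higher receptor value to a lower ligand value. No other form was possible, since among tested receptors Cxcr4 alone had a negative value, as did its ligand Cxcl12. The pairs of opposite sign included Ccl2, Ccl7 and Ccl12 with Ccr2, Ccl3 and Ccl7 with Ccr1, Cxcl16 with Cxcr6, and Cx3cl1 with Cx3cr1. The sign turned without dinutuximab tumour 3 for Ccl2, Ccl7 and Ccl12 (for Ccl12 also without sEV tumour 4, by limma-voom and with the tumour number as a block), without dinutuximab tumour 4 for Cxcl16, without sEV tumour 3 for Cx3cl1 and without sEV tumour 4 for Cxcr6. In 13 pairs only the ligand was tested, in 4 only the receptor, and in 8 neither.

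**Figure D4:**
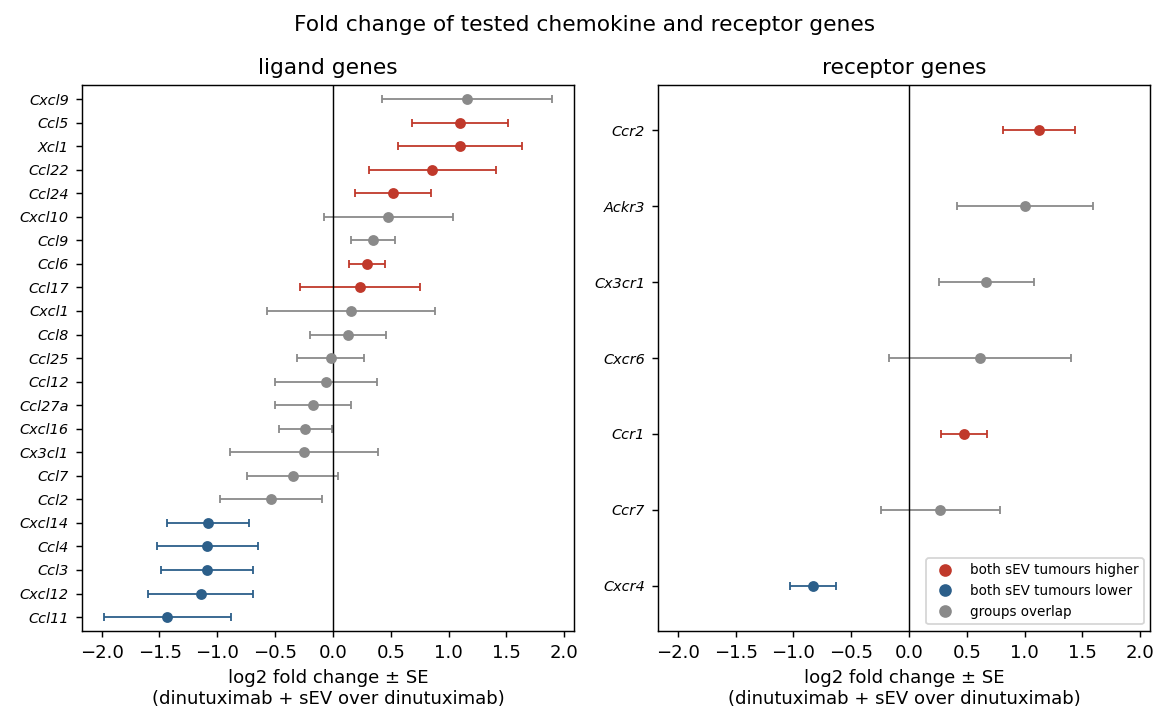
Log2 fold change, dinutuximab plus sEV over dinutuximab, with its standard error, for the 23 tested ligand genes (left) and 7 tested receptor genes (right), ordered by value. Red marks genes in which both sEV tumours were above both dinutuximab tumours and blue those in which both were below; the values run from -1.43 for Ccl11 to 1.16 for Cxcl9, and 6 of the 7 receptor genes shown lie above 0.

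Chromosome 9 holds 14 of the receptor genes, and chromosome 11 holds 11 tested ligand genes, all but Cxcl16 within 82035571 to 83664683. Ccr1 (123962124 to 123968692, minus strand) and Ccr2 (124101950 to 124113557, plus strand) lie within 1 stretch of chromosome 9 on GRCm38, with Ccr1l1 and Ccr3 between them. Ccr1 and Ccr2 had the higher values with sEVs, while Ccr3 had 7 and 4 counts with sEVs and 6 and 2 with dinutuximab and Ccr1l1 had 1 count in all. On chromosome 11, Ccl5, Ccl6 and Ccl9 had positive values and Ccl3 and Ccl4, in the same stretch from 83525778 to 83664683, negative ones.

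Other genes of chemokine biology were read from 4 lists, and none of their members passed the test by edgeR. Of 26 signalling genes, 1 was higher and 2 lower at an unadjusted p under 0.05, 11.5% beside 5.57% of all tested genes. Their median log2 fold change was 0.04. The small GTPase gene Rap1a, which switches on integrins, had 157 and 158 CPM with sEVs and 123 and 112 CPM with dinutuximab. Pik3r5, a regulatory subunit of the PI3 kinase used by chemokine receptors, had 25.6 and 23.8 CPM with sEVs and 32.5 and 34.5 CPM with dinutuximab. Rgs16, which shuts off G proteins, had -1.35 ± 0.58 at no more than 22 counts in a tumour. Among 14 related attractants and receptors outside the name rule the median was 0.03. Pf4, platelet factor 4 and a CXC chemokine by structure, had 76.4 and 52.6 CPM with sEVs and 49.8 and 41.3 CPM with dinutuximab (0.50 ± 0.19), and Ccrl2, a receptor that presents chemerin, 0.573 and 0.970 CPM with sEVs and 2.69 and 1.56 CPM with dinutuximab (-1.45 ± 0.44).

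Of 14 tested genes that cut, shed or hold chemokines, 2 were higher and 0 lower at an unadjusted p under 0.05. Those are 14.3%, beside 5.57% of all tested genes, and the median of the list was -0.14. Adam10, the protease that sheds Cx3cl1 and Cxcl16, had 190 and 185 CPM with sEVs and 150 and 157 CPM with dinutuximab (0.29 ± 0.12). Ext2, an enzyme that builds the heparan sulphate to which chemokines bind, had 135 and 133 CPM with sEVs and 95.7 and 114 CPM with dinutuximab (0.35 ± 0.14). Of 15 tested inducers 0 were higher and 2 lower at an unadjusted p under 0.05, 13.3% beside 5.57% of all tested genes. Their median was 0.00. Tnf had 1.03 and 0.728 CPM with sEVs and 2.03 and 1.43 CPM with dinutuximab (-0.98 ± 0.40), and Nfkbia, a feedback inhibitor that NF-kappaB induces, 75.2 and 67.9 CPM with sEVs and 127 and 85.0 CPM with dinutuximab (-0.57 ± 0.19). Nfkbia, Tnf and Il1b were highest in dinutuximab tumour 3, as were Ccl2, Ccl3 and Ccl4. The 14 genes that respond to tissue handling summed to 822 and 866 CPM with sEVs and 1028 and 948 CPM with dinutuximab, and 13 of 14 had negative log2 fold changes, with a median of -0.37. Both sEV tumours lay below both dinutuximab tumours in 9 of them, 64.3% beside 16.5% of all tested genes, and 5 were lower at an unadjusted p under 0.05, beside 3.1% of all tested genes. Their part in the chemokine values was not tested.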

How the data were processed

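RNA was read from 4 flash-frozen tumours, 2 per group, in stranded mRNA libraries, per the labels' protocols. Raw counts for 43432 Ensembl IDs were deposited by the authors, once for the series and once for each sample, and all 173728 values were the same in both. Per the submitters' processing notes, STAR, SAMtools and HTSeq were used with mm10; versions, annotation and strand setting are not given in the sources used here, so counts of overlapping genes and near-identical copies are uncertain.

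Names, coordinates and merged exon lengths came from GENCODE M21 (GRCm38), which named 42548 IDs; 884 stayed unnamed and were tested. The test was that of edgeR 4.0.16 under R 4.3.3 (TMM scaling, filterByExpr with a minimum count of 10, quasi-likelihood F test, group as the only term), which kept 13823 genes, with Benjamini-Hochberg adjustment at 0.05. CPM are counts over the TMM-scaled library. No permutation test over tumours was used, since an exact two-sided one cannot fall below p = 0.333 in this design. P-values rest in part on the gene's spread between these tumours and in part on a variance trend shared by all genes. Without the low-count filter, or without an sEV tumour, edgeR used that trend alone. DESeq2 1.42.0, limma-voom (limma 3.58.1), other scalings, filters and dispersions, the tumour number as a block, the deposited sample tables and the omission of each tumour were the alternatives. The fit was tested on simulated counts that gave every gene the same dispersion, so members with a wider spread between tumours are not covered by it.

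Members, gene lists and pairs were chosen with earlier results of these data known. The rule for naming covered members that passed the filter or were paired with one that did, with their values in each tumour, list genes with an unadjusted p under 0.05 and some abundant markers. Promoter windows are from RefSeq, and members without one there are only named. Some genes are not reported here by name, though counts and medians over all members and lists include them.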

Additional observations from a re-analysis of the deposited data

How the results depend on the processing

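Of 427 recomputed member values, 18 of those with a tumour left out changed sign. Under the other settings 290 kept direction and call, 8 became called and 5 changed sign. By edgeR, 0 members were called with other scalings, a filter of 1 CPM, robust dispersions or the tables per sample. Without the low-count filter 4 members were called higher and 3 lower (107 and 155 of all genes), and the receptor median was 0.42 over 19 genes. In that fit, as in each without an sEV tumour, all genes shared 1 variance trend. DESeq2 called 17 genes higher and 38 lower but 0 members. The tumour number as a replicate block gave 21 genes higher and 46 lower, among them 1 member higher, Ccr2 (edgeR adjusted p = 0.0448). The labels do not say what the number means, and same-numbered tumours deviated together with a correlation of 0.117 over genes.

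Under limma-voom the log2 fold change was 0.0271 for Ccl12 and 0.0072 for Ccl25, under the block it was 0.0290 and 0.0072, and with total count scaling Ccl25 had 0.0217. When each tumour was left out in turn, between 0 and 3 members were higher and between 0 and 2 lower, and between 0 and 160 of all genes higher and 0 and 156 lower. The ligand median ran from -0.28 to 0.42 and the receptor median from 0.21 to 1.14, each over the genes tested in that fit. Values that changed sign ran from -0.63 to 0.62 for Ccl8, -0.65 to 0.85 for Ccl12, -0.90 to 0.56 for Ccl7, -1.12 to 0.49 for Ccl2, -0.52 to 0.0666 for Cxcl16, -1.17 to 2.0 for Cxcl9, -0.44 to 1.48 for Cxcl10, -0.47 to 0.21 for Ccl27a, -0.69 to 2.48 for Cxcl1, -0.28 to 0.30 for Ccl25, -1.67 to 0.42 for Cx3cl1, -0.65 to 1.76 for Ackr3, -1.42 to 1.40 for Cxcr6 and -0.0693 to 0.69 for Ccr7. The lone tumour then left in a group is assumed to vary like the others, and the cause was not tested. The 31 members that had under 10 counts in every tumour could not be compared, limited by depth or, for near-identical copies, by uncertain counting.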

Other observations

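Cells that could read these chemokines were looked for through their markers. The 7 B and plasma cell markers summed to 4.51 and 5.30 CPM with sEVs and 8.73 and 4.18 CPM with dinutuximab. The 10 dendritic cell markers summed to 117 and 134 CPM with sEVs and 182 and 135 CPM with dinutuximab, mostly from Bst2 and Fscn1, which other cells also express, and Siglech had 0 counts in all 4 tumours. The 9 mast cell and eosinophil markers summed to 2.10 and 1.14 CPM with sEVs and 1.71 and 3.81 CPM with dinutuximab, with Epx, Prg2 and Il5ra at 0 in all 4. The 5 lymphatic markers summed to 134 and 42.6 CPM with sEVs and 58.7 and 35.1 CPM with dinutuximab. Most of that sum came from Lyve1, which some tissue macrophages also express, and 2 of the 5 markers were not tested. The 9 skin, muscle and fat markers summed to 33.6 and 27.8 CPM with sEVs and 31.5 and 37.8 CPM with dinutuximab, and the 10 neuroblastoma markers to 344 and 334 CPM with sEVs and 306 and 327 CPM with dinutuximab.

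All 67 chemokine and receptor genes together took 0.116% and 0.115% of counts with sEVs and 0.113% and 0.0873% with dinutuximab.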
